A study of Mus musculus with 14 samples.

Results

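Hepatic stellate cells (HSCs) are the vitamin A-storing pericytes of the liver sinusoid. After injury, or when plated on plastic, they lose their lipid droplets, take on smooth muscle features and deposit collagen, a change called activation. The messenger RNA of control cultures after 16 h (Ctrl16h, 2 arrays) was compared here with that after 4 h (Ctrl4h, 3 arrays), 5 of the 14 arrays of the series, to describe the first 12 h of this change across genes and pathways. The arrays were taken by their titles, and 21789 of the 35557 probe sets, those paired with exactly 1 gene symbol, were described. Both groups held primary HSCs of BalbC mice (Balb/cByJ in the methods) in DMEM with 10% FBS, freed of unattached cells 2 h after seeding, and their time in culture ran from that wash. Neither group received valproic acid (VPA), the other variable of the series. The methods say that the purity of isolated liver cells was checked by their morphology and by PCR of marker genes. The methods describe the arrays of a group as independent biological replicates. The 3 control arrays at 64 h (Ctrl64h) are given as levels only, and the VPA arrays enter only through the shared estimate of spread.

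Levels are log2 values made by RMA, a background correction, quantile normalisation and summary of the probes, so a difference of 1 is a 2-fold change. Array medians lay between 6.34 and 6.41. Stellate genes were well detected: at 4 h Reln stood at 12.21 to 12.36, Rgs5 at 11.87 to 12.16 and Pdgfrb, the PDGF receptor β, at 11.22 to 11.39. The Kupffer cell genes Adgre1, Clec4f and Vsig4 and the leukocyte gene Ptprc had means below 6.34 at 4 h, the median of all probe sets. Other markers of these cells lay above it. Lyz2 stood at 9.02, 8.13 and 7.17 at 4 h and Ctss at 8.64, 7.96 and 7.41, and at 16 h they were at 7.42 and 7.07 and at 7.21 and 6.96, differences that were not called (adjusted p = 0.324 and 0.175). Ccl5, counted with the lymphocyte markers and the chemokines, stood at 9.60, 9.23 and 8.14 and then at 7.45 and 7.09. The summed level of 22 Kupffer cell and macrophage markers was 10.44 to 11.18 (log2) at 4 h and 10.29 to 10.34 at 16 h, with none called (3 had an unadjusted p under 0.05). That of 22 sinusoidal endothelial markers was 13.02 to 13.20 and then 12.42 to 12.54, with Plvap called (2 without Ctrl16h replicate 1), and that of 17 lymphocyte and NK cell markers 9.69 to 10.34 and then 9.35 to 9.50, with Ccl5 called. For 22 hepatocyte markers the sums overlapped, 10.92 to 11.40 against 10.51 to 11.02, and Trf was called. Kupffer and lymphocyte sums were highest on Ctrl4h replicate 1. The lymphocyte sum includes Ccl5, at 9.60 on that array against a sum of 10.34, so its order and its fall in part follow Ccl5. The endothelial sum likewise includes Plvap, at 12.17 on Ctrl4h replicate 1 against a sum of 13.20, so its fall in part follows Plvap. Pecam1, Cdh5, Stab2, Lyve1 and Fcgr2b had log2 changes of -0.36 to -0.14. None of these passed (limma adjusted p of 0.0729 to 0.667). Of the 22 endothelial markers 6, Plvap among them, passed the adjusted p with lower levels and none with higher ones. In such bulk samples fewer cells of a type and less RNA per cell cannot be told apart.

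More genes fell than rose, and they fell further. A probe set was called at a limma adjusted p under 0.05 and at least 2-fold. By this rule 159 rose (0.73% of 21789) and 275 fell (1.26%), with median folds of 2.29 and 2.54. Only 3 of the rises reached 4-fold, against 33 of the falls. Both 16 h arrays lay above all 4 h arrays in every called rise, and below them in every called fall. Over all 21789 probe sets 5488 lay above and 4558 below in this way. This separation of the arrays is therefore no further support for a called gene. The median level of the fallen probe sets was 8.57 at 4 h, 6.95 at 16 h and 7.75 at 64 h, while that of the risen ones was 7.16, 8.42 and 8.76. At a limma adjusted p below 0.05 and any size of change, these calls included, the balance was the other way, with 2885 probe sets higher, but 1618 lower. At an unadjusted limma p under 0.05 there were 3948 higher and 2603 lower. The fall count is not a count of genes, because 48 of the 77 probe sets of Hmcn1, which encodes the giant matrix protein hemicentin 1, are in it (log2 changes of -1.67 to -1.02). With 1 probe set a gene, 155 of 19938 genes rose (0.777%) and 219 fell (1.1%), and these shares are the background for the lists that follow. The median log2 change over all genes was -0.01. The balance depends on the scaling: the 13 housekeeping genes were on average 0.20 higher at 16 h and a Gapdh probe set was 0.42 higher, and centring on them gave 80 rises and 425 falls, or 38 and 741. Rises were then 15.8% or 4.88% of calls instead of 36.6%.

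**Figure D1:**
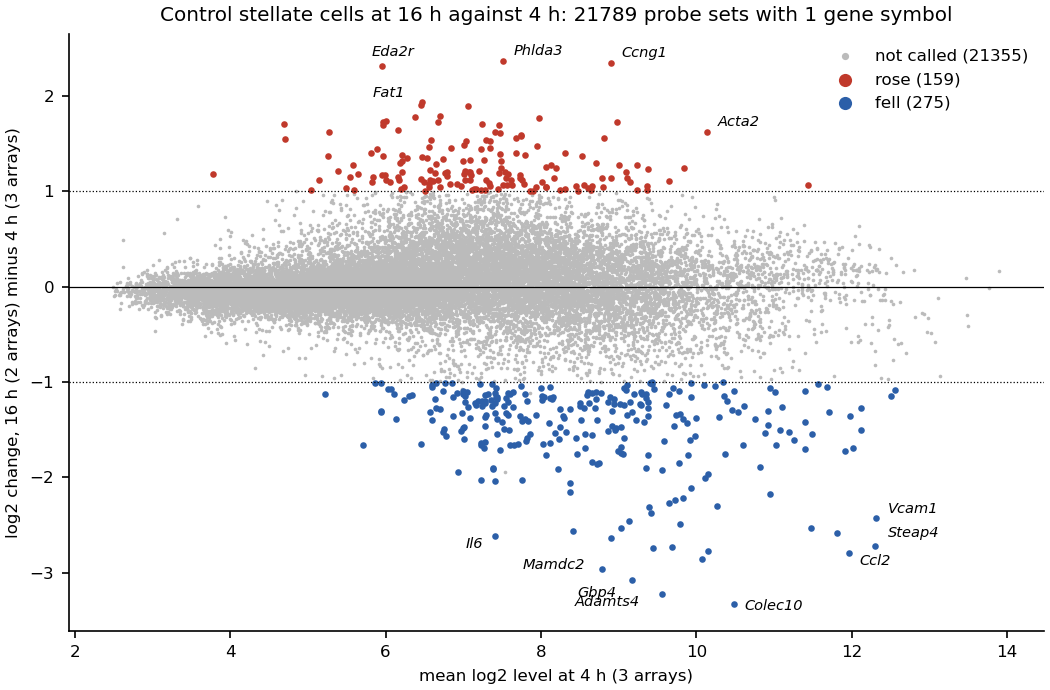
Each point is 1 of 21789 probe sets, with the mean log2 level at 4 h on the horizontal axis and the log2 change from 4 h to 16 h on the vertical axis. Red marks the 159 that rose, blue the 275 that fell and grey the rest, and the dotted lines mark 2-fold. The falls reach a log2 change of -3.33 and the rises 2.37.

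**Figure D2:**
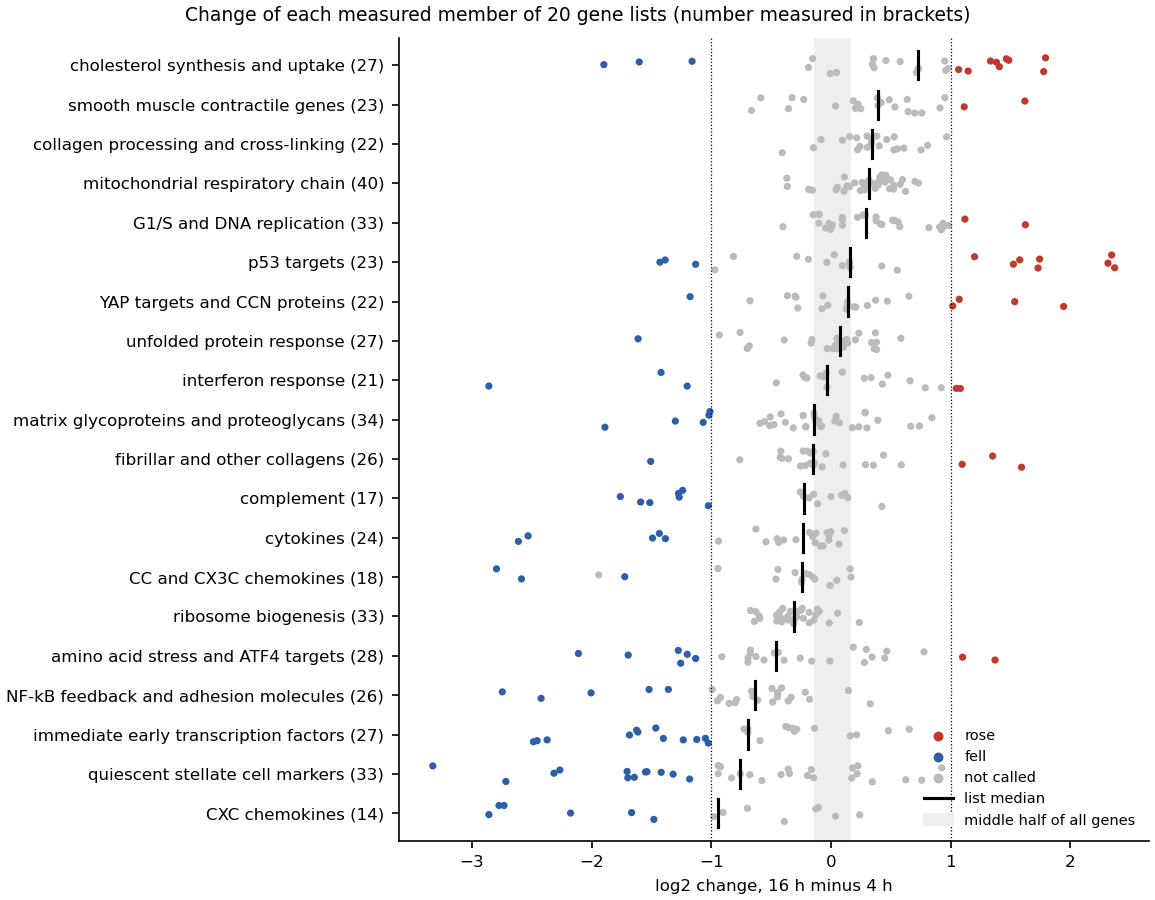
Each point is a measured member of 1 of 20 gene lists, placed by its log2 change from 4 h to 16 h, red where it rose, blue where it fell and grey where it was not called. The black bars are list medians, from -0.94 for CXC chemokines to 0.73 for cholesterol synthesis and uptake, and the grey band runs from the lower to the upper quartile of all genes.

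Several genes of inflammatory mediators fell, although most members of each list were not called. By 16 h 6 of 14 CXC chemokines (median -0.94), 3 of 18 CC and CX3C chemokines (median -0.24) and 5 of 24 cytokines (median -0.24) had fallen, with no rise in any of these lists. Chemokines are secreted attractants of leukocytes, and their promoters, like those of Il6 and the adhesion molecule genes, are classical targets of the transcription factor NF-κB. NF-κB also switches on its own inhibitor, IκBα, encoded by Nfkbia. Of 26 NF-κB feedback and adhesion genes 5 fell and none rose (median -0.63), and 8 fell without Ctrl4h replicate 3, 9 when centred on housekeeping genes and 14 when centred on Gapdh. On these scales 5 of the CC and CX3C chemokines fell.

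Among 15614 measured genes with a RefSeq promoter (GRCm38.p6, 250 bases before to 50 after the start), the NF-κB core, GGANTTTCC or GGAANTTCC on either strand, was present in 2.22%. It was found in 15 of 158 fallen genes (9.49%) and in 2 of 125 risen genes (1.6%). All 4 fallen CXC chemokine genes that matched, Cxcl1, Cxcl2, Cxcl3 and Cxcl10, had it. Of the fallen cytokine genes 1 of 4 had it, against 4 of 16 cytokine genes in all. The counts were 2 of 4 fallen NF-κB feedback and adhesion genes and 0 of 3 fallen complement genes. None of the 3 fallen CC chemokine genes had a promoter to search. The 150 bases before the start of genes at both ends of this loop, the chemokines and the inhibitor, are shown with the core in capitals.
Cxcl1 (chr5:90891095-90891244, plus strand): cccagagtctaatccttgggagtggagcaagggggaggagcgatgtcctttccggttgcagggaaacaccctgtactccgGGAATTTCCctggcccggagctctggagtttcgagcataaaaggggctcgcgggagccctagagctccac
Cxcl2 (chr5:90903749-90903898, plus strand): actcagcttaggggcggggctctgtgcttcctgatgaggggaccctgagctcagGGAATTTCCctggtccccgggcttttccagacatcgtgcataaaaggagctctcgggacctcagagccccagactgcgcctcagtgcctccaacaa
Nfkbia (chr12:55492648-55492797, minus strand): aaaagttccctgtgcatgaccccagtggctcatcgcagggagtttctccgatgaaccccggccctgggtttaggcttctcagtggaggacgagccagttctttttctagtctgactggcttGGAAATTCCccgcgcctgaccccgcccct
The neighbouring Cxcl1 and Cxcl2 carry the same 9 letters 70 and 96 bases before their starts. The TATA letters TATAAA, again on either strand, were in 28.5% of fallen, 8.0% of risen and 13.6% of all promoters, and AP-1 letters (TGACTCA or TGAGTCA) in 10.1%, 1.6% and 5.41%. These matches describe letters in a window, and binding was not measured.

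Cxcl1 had levels of 11.55, 10.72 and 10.59 on the 4 h arrays and of 8.65 and 8.90 on the 16 h arrays. The groups were far apart, and the fall was 4.52-fold (log2 change -2.18 ± 0.33 SE, adjusted p = 0.000204). Its neighbour Cxcl2 measured 11.22, 10.03 and 9.19 against 7.36 and 7.39. The cultures differed widely at 4 h and hardly at 16 h, and the 6.84-fold fall had an adjusted p of 0.00199. Cxcl10, an interferon-inducible attractant of T cells, was tighter, with 10.25, 10.0 and 9.96 against 7.11 and 7.32 (7.25-fold, adjusted p = 2.01e-07). Ccl2, the monocyte attractant MCP-1, stood at 12.30, 11.91 and 11.69 and then at 9.09 and 9.26, a 6.94-fold fall with an adjusted p of 3.5e-06. Ccl7 and Cxcl5 fell 6.0-fold and 6.64-fold. Cxcl3, Ccl5, Csf2 and Tnfaip3 passed with all arrays, but Ccl5 did not without Ctrl16h replicate 2 (adjusted p = 0.0676), and without Ctrl4h replicate 1 the log2 changes of Cxcl3, Csf2 and Tnfaip3 were -0.90, -0.90 and -0.85, short of 2-fold. These 3 were also lost without either 16 h array (adjusted p of 0.0598 to 0.121). Ccl3 showed a difference of -1.94 that was not called (adjusted p = 0.063).

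Some cytokine and adhesion molecule genes fell as well. Il6 measured 7.93, 6.67 and 7.61 at 4 h and 4.61 and 4.97 at 16 h (6.11-fold, adjusted p = 5.27e-05). Il33, an alarmin held in the nucleus of stromal cells, went from 11.73, 11.48 and 11.21 to 8.96 and 8.93 (5.78-fold, adjusted p = 3.5e-08). Lif fell 2.70-fold. Among adhesion molecules Vcam1 fell from 12.38, 12.40 and 12.15 to 9.94 and 9.83 (5.36-fold, adjusted p = 6.07e-08) and the selectin gene Sele from 10.28, 9.35 and 8.70 to 6.87 and 6.53 (6.71-fold, adjusted p = 4.04e-05). Ptgs2, the inducible cyclooxygenase, fell 4.01-fold, and Nfkbia itself fell from 11.43, 11.14 and 11.01 to 9.56 and 9.79 (2.87-fold, adjusted p = 5.29e-05). Of the 19 different fallen genes in these lists 17 were highest on Ctrl4h replicate 1, the array with the highest Kupffer marker sum. The median SD of the 19 genes was 0.43 at 4 h against 0.11 over all probe sets. Ccl5 is among the 19 and also counts in the lymphocyte marker sum, so that sum is not separate from these falls. The part of Kupffer cell and lymphocyte markers in these falls was not tested. Of the CXC chemokines 5 still fell without Ctrl4h replicate 1. At 64 h Cxcl1 and Ccl2 stood lower again, at means of 6.30 and 7.68, whereas Il6 stood at 6.42.

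**Figure D3:**
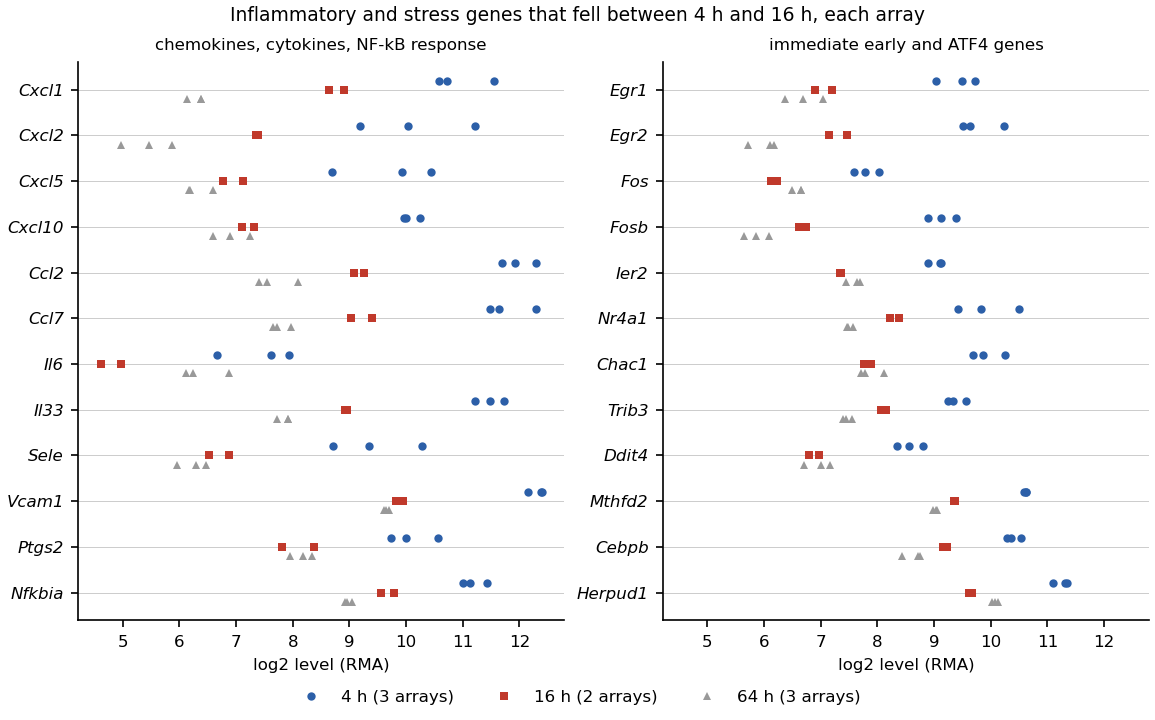
Log2 levels on each array at 4 h (blue), 16 h (red) and 64 h (grey) for chemokines, cytokines and NF-κB response genes on the left and immediate early, ATF4 and endoplasmic reticulum stress genes on the right. For every gene drawn both 16 h arrays lie below all 4 h arrays, as in every called fall. For Ccl2 they stand at 9.09 and 9.26 against 11.69 to 12.30.

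Immediate early genes, the transcription factors that cells induce within minutes of serum or mechanical stimulation, fell in 12 of 27 cases and rose in none, with a median change of -0.70. Counting changes of any size that passed the adjusted p, 19 were lower and 2 higher, against 7.09% and 13.5% of all genes. Egr2 measured 9.63, 9.51 and 10.24 at 4 h and 7.15 and 7.46 at 16 h (5.60-fold, adjusted p = 2.22e-06). Egr1 fell 5.17-fold, and Fosb, a partner of Jun proteins in AP-1, went from 9.12, 8.89 and 9.38 to 6.61 and 6.74 (5.48-fold, adjusted p = 4.75e-08). Fos fell 3.08-fold, Ier2 3.21-fold and the orphan nuclear receptor gene Nr4a1 3.06-fold. Arrays of the groups did not overlap for any of them, as for every called probe set. Atf3, Ier3, Junb, Maff, Myc and Ier5 made up the 12. At 4 h replicate 3 was the highest array for 6 of the 12 genes and replicate 1 for the other 6. Serum response factor (SRF), which drives several of these genes, binds the CArG box. Of the 9 fallen members with a promoter 1, Egr2, held it, against 1.63% of all promoters. A further list held 28 measured actin regulators and SRF targets, and 7 of its 23 promoters (30.4%) had the box. In that list Ankrd1 rose and none fell. Changes of any size that passed the adjusted p went up in 12 of its genes and down in 0, against 13.5% and 7.09% of all genes. Its median of 0.25 became 0.05 centred on housekeeping genes and -0.17 on Gapdh, and Ankrd1 was called on neither scale. The box of Egr2 lies 72 bases before the third of the start sites listed for this gene. It is in capitals in the 150 bases before that start.
Egr2 (chr10:67537719-67537868, plus strand): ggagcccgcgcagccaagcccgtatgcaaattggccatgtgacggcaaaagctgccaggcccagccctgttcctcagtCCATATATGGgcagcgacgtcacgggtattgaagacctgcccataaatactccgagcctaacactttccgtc
Of 16 MAPK feedback genes, Errfi1, an inhibitor of the EGF receptor, fell 2.21-fold, from 12.46 to 12.55 down to 11.30 and 11.43. Dusp1 and Dusp5, phosphatases of MAP kinases, also passed with all arrays but not without Ctrl4h replicate 1 (log2 changes of -0.92 and -0.95). Dusp1 was lost without Ctrl16h replicate 2 too (-0.91), and Dusp5 without Ctrl16h replicate 1 (-0.83) or Ctrl4h replicate 3 (-0.96). Hbegf, a ligand of the same receptor, fell 2.77-fold.

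Stress genes controlled by ATF4, the factor that responds to amino acid shortage and endoplasmic reticulum stress, were more often lower than higher at 16 h. Of 28 measured 6 fell, 2 rose and the median was -0.46. Among changes of any size that passed the adjusted p 16 were lower and 4 higher, against 7.09% and 13.5% of all genes. Centred on housekeeping genes 1 rose, and on Gapdh 12 fell and 0 rose. Chac1, which degrades glutathione, fell from 10.26, 9.86 and 9.69 to 7.89 and 7.76 (4.32-fold, adjusted p = 3.72e-07). Ddit4, an inhibitor of mTORC1 that is also counted with the hypoxia genes, fell 3.23-fold, Trib3 2.42-fold, the mitochondrial folate enzyme gene Mthfd2 2.39-fold and Cebpb 2.30-fold. The 2 members that rose were Aldh1l2, another mitochondrial folate enzyme (5.90 to 6.01 at 4 h, 7.31 and 7.37 at 16 h, 2.59-fold), and the cationic amino acid transporter gene Slc7a3, which did not pass without Ctrl16h replicate 1. Among 27 genes of the unfolded protein response Herpud1, a component of endoplasmic reticulum-associated degradation, fell 3.06-fold (11.31, 11.34 and 11.10 against 9.67 and 9.61, adjusted p = 4.75e-08), while the list median was 0.07, or -0.12 centred on housekeeping genes. Without Ctrl4h replicate 3 the count was 2. The 33 ribosome biogenesis genes shifted by less than 2-fold: none was called by limma, but 18 were lower and none higher at an adjusted p under 0.05, where 7.09% of all genes were lower, and the median was -0.31. Rrs1 and Nip7 differed most, at -0.64 ± 0.11 and -0.67 ± 0.09. Steap4, a metalloreductase, fell 6.57-fold and Mt2, a metallothionein, 2.61-fold, while Steap2 rose 2.95-fold (8.07, 7.52 and 7.44 against 9.17 and 9.30).

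More of the interferon-inducible genes named here fell than rose, and the rises depended on the scaling. The guanylate-binding proteins, interferon-γ-inducible GTPases, were picked out after their values were seen. Of 8 measured Gbp genes 7 fell, led by Gbp4, which went from 9.43, 9.35 and 8.74 to 6.44 and 5.73 (8.46-fold, adjusted p = 6.49e-07). Gbp genes are close copies of each other, so the signal of 1 probe set may include that of a relative. Of 29 H2 genes, which encode the major histocompatibility complex, 3 fell, H2-Aa, H2-Ea and H2-Q4, and none rose, and Ifitm1 fell on both of its probe sets. In the list of 21 interferon response genes Cxcl10, Gbp3 and Rsad2 fell and 2 sensors or regulators of antiviral signalling rose, Usp18 (7.01, 6.38 and 6.27 against 7.99 and 7.28) and Ddx58 (8.46, 7.77 and 7.57 against 9.11 and 8.85). Both rises were narrow: without Ctrl16h replicate 1 the log2 changes were 0.72 and 0.92, without Ctrl4h replicate 2 they were 0.99 and 0.97, without Ctrl4h replicate 3 they were 0.94 and 0.86, and none of these passed. Centred on housekeeping genes or on Gapdh, 0 of the 21 interferon response genes rose. Complement genes fell in 7 of 17 cases and rose in none (median -0.23). C1ra, a protease of the classical pathway, fell 3.39-fold (8.61, 8.48 and 8.30 against 6.97 and 6.44), C2 3.01-fold, C6 2.85-fold, the inhibitor gene Serping1 2.41-fold and factor B, Cfb, 2.36-fold. All 7 were highest on Ctrl4h replicate 1 at 4 h, and C4b did not pass without it (adjusted p = 0.0951) or without either 16 h array (0.124 and 0.126).

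Genes that mark quiescent HSCs in the liver were more often lower than higher at 16 h. None of the 33 measured rose and 12 fell, and 1 rose when Ctrl16h replicate 2 or Ctrl4h replicate 2 was left out. Their median change was -0.76, and their summed level was 15.90 to 15.95 at 4 h against 14.99 to 15.05 at 16 h. The largest fall of all was that of Colec10, a collectin of the lectin complement pathway secreted by HSCs, from 10.52, 10.57 and 10.36 to 7.13 and 7.18 (10.03-fold, log2 change -3.33 ± 0.27, adjusted p = 6.49e-07). Its relative Colec11 fell 4.81-fold and Angptl6 4.97-fold. Pericyte genes followed, with Rgs5, a brake on G protein signalling, going from 12.16, 12.01 and 11.87 to 10.40 and 10.24 (3.24-fold, adjusted p = 2.11e-07) and Abcc9, a subunit of ATP-sensitive potassium channels, falling 3.26-fold. Lrat, which esterifies retinol for storage, measured 6.95, 7.53 and 7.21 and then 5.91 and 5.26, a 3.12-fold fall (adjusted p = 6.47e-05). Dhrs3, a retinal reductase, fell 2.44-fold, and these were the 2 of 26 retinoid genes that fell (list median -0.06). Tcf21, a transcription factor of the stellate lineage, fell 2.90-fold, Hgf, the hepatocyte growth factor, 2.49-fold, and Ngfr 2.27-fold, although Ngfr just missed 2-fold without Ctrl16h replicate 2 (-0.99).

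Other markers of the same cells did not pass. Reln had a log2 change of -0.68 ± 0.14 and Ntm one of -0.83 ± 0.15, both short of 2-fold. Pdgfrb was level, with 11.39, 11.22 and 11.35 against 11.39 and 11.42 (log2 change 0.09 ± 0.10). Desmin, Des, was higher by 0.76 ± 0.09. Bmp2, a secreted morphogen, fell 3.17-fold (11.36, 11.02 and 10.71 against 9.07 and 9.66, adjusted p = 1.01e-05), and Tgfbi, a matrix protein induced by TGF-β, 3.31-fold. Several falls were followed by higher levels at 64 h, in genes chosen after their values were seen. Itga8, the integrin α8 of stellate and mesangial cells, had means of 9.03, 6.50 and 9.71 at 4, 16 and 64 h. Tcf21 had 10.88, 9.34 and 10.87, Lrat 7.23, 5.59 and 7.66, Lum, a collagen-binding proteoglycan, 10.82, 8.93 and 11.54, and Usp17ld, a deubiquitinase of a repeated family, 8.90, 6.26 and 9.55. Colec10, the largest fall, had 10.49, 7.16 and 9.55, with 64 h arrays from 8.93 to 10.19. Steap4 had 12.30, 9.59 and 10.53, and Dhrs3 8.38, 7.09 and 10.08. Rgs5, at 9.71, Colec11, at 6.94, and Angptl6, at 6.23, were as low or lower at 64 h than at 16 h.

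**Figure D4:**
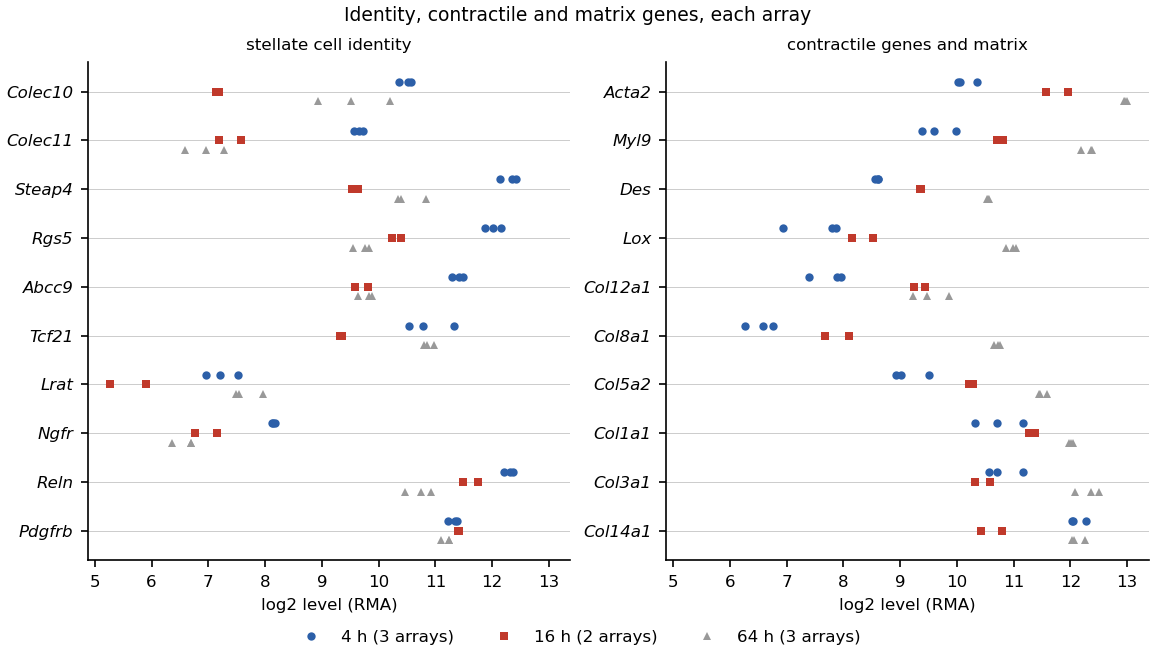
Log2 levels on each array at 4 h (blue), 16 h (red) and 64 h (grey) for genes of HSC identity on the left and contractile and matrix genes on the right. Colec10 to Ngfr lie lower at 16 h than at 4 h while Pdgfrb differs little (log2 change 0.09), and Acta2 rises from 10.02 to 10.35 at 4 h to 11.57 and 11.95 at 16 h.

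Few contractile and collagen genes changed by 2-fold. Acta2, α-smooth muscle actin and the standard marker of activation, rose from 10.35, 10.02 and 10.05 to 11.95 and 11.57 (3.07-fold, log2 change 1.62 ± 0.14, adjusted p = 1.36e-06), and its mean at 64 h was 12.97. Of 23 contractile genes only Acta2 and Myl9, a myosin light chain, passed, and Myl9 did not without Ctrl4h replicate 1 (0.98). A further 10 were higher below 2-fold, and the median of 0.39 became 0.20 when centred on housekeeping genes and -0.03 on Gapdh. Of 26 collagens 3 rose and 1 fell (median -0.15). Col12a1 rose 3.01-fold (7.95, 7.39 and 7.90 against 9.43 and 9.24), Col8a1 2.55-fold and Col5a2 2.14-fold, the last not without Ctrl4h replicate 2 (0.99), and Col14a1 fell 2.84-fold, from 12.02 to 12.28 down to 10.80 and 10.42. The main fibrillar collagen genes did not pass: Col1a1 measured 11.17, 10.32 and 10.71 against 11.38 and 11.26 (0.59 ± 0.20), and Col3a1 11.16, 10.70 and 10.57 against 10.59 and 10.32 (-0.36 ± 0.22). Lox, a collagen cross-linking enzyme, was 0.81 ± 0.23 higher, also below the limit, as were the 22 genes of collagen processing as a whole, with 12 higher, 1 lower and none called at 2-fold (18 had an unadjusted p under 0.05), or 1 called without Ctrl16h replicate 1 or Ctrl4h replicate 3. Their median of 0.34 became -0.08 on the Gapdh scale.

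Few genes of other matrix proteins and of their proteases were called, and more of them fell than rose. Of 34 matrix glycoproteins and proteoglycans 5 fell and none rose (median -0.14). Ogn, Prelp and Lama2, among the 5, were near the limit. Ogn had a log2 change of -0.91 without Ctrl4h replicate 2, -0.90 without Ctrl4h replicate 3 and -0.96 without Ctrl16h replicate 1. Prelp had -0.95 without Ctrl4h replicate 1 and -0.99 without Ctrl16h replicate 2, and Lama2 -0.93 without the latter. Lum fell 3.70-fold (a mean of 10.82 at 4 h against 8.86 and 9.0 at 16 h, adjusted p = 2.75e-07) and Thbs2 2.46-fold. Adamts4, an aggrecanase, fell most among 29 metalloproteinases and inhibitors, from 9.37, 9.55 and 9.76 to 6.32 and 6.36 (9.32-fold, adjusted p = 5.53e-10). Mmp19 fell 4.47-fold and the collagenase gene Mmp13 3.78-fold, and Adam12 rose 3.26-fold, from 7.43, 6.95 and 7.32 to 8.82 and 9.06, with a mean of 7.71 at 64 h. Timp1 (0.25 ± 0.17) and Mmp9 (-0.02 ± 0.10) were not called. Among 16 genes of the plasminogen system, coagulation and serpins the activator Plat fell 2.54-fold, Procr 2.86-fold and Tfpi2 2.83-fold, while Serpinb9b rose 3.06-fold. Serpinb2 passed with all arrays (adjusted p = 0.025) but not without either 16 h array or without Ctrl4h replicate 2 or 3, at adjusted p of 0.088 to 0.136. Mamdc2, a matrix-domain protein gene in no list, fell 7.81-fold (adjusted p = 3.9e-09). Igfbp3, a carrier of insulin-like growth factors, had a log2 change of 0.02 ± 0.24 (adjusted p = 0.969).

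The largest rises belonged to targets of p53, the tumour suppressor that answers DNA damage by arrest, repair or death. A p53 list was introduced into the study of these data after their values were known, so its count is a description. Of 23 measured targets 8 rose and 3 fell. Phlda3, an inhibitor of AKT, stood at 7.58, 7.46 and 7.50 at 4 h and at 9.81 and 9.96 at 16 h, a 5.17-fold rise (log2 change 2.37 ± 0.09, adjusted p = 5.53e-10). Ccng1, cyclin G1, which feeds back on p53, went from 9.04, 8.80 and 8.84 to 11.16 and 11.32 (5.08-fold, adjusted p = 5.53e-10). Eda2r, the TNF family receptor of ectodysplasin A2, went from 6.26, 5.86 and 5.73 to 8.25 and 8.28 (4.97-fold, adjusted p = 3.5e-08). These were the 3 rises past 4-fold. Polk, a translesion DNA polymerase, rose 3.35-fold, Tnfrsf10b, the TRAIL receptor, 3.32-fold and Ei24 2.98-fold, and Zmat3 and Trp53inp1 completed the 8. Gadd45a, Gadd45b and Sesn2, growth arrest and stress genes, fell instead, with log2 changes of -1.39, -1.43 and -1.13. Sesn2 is also counted among the ATF4 targets above. Changes of any size that passed the adjusted p were 9 higher and 6 lower, against 13.5% and 7.09% of all genes. Mdm2, the p53 ubiquitin ligase, was the higher one that was not called (0.42, adjusted p = 0.03). The falls were 5 under either centring. The list median of 0.15 became -0.04 with centring on housekeeping genes, and -0.27 on Gapdh, but all 8 genes that rose were called in each of the 5 fits that left out 1 array. At 64 h Phlda3, Ccng1 and Polk had means of 9.71, 11.42 and 7.76.

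Genes of cholesterol synthesis rose while the cholesterol exporters Abca1 and Abcg1 fell. Cells make sterols through a chain of enzymes switched on by SREBP-2 when sterols are scarce, and export them through ABC transporters switched on by the liver X receptors when sterols abound. Of 27 genes of cholesterol synthesis and uptake 9 rose, 3 fell and 10 more were higher short of 2-fold (list median 0.73). Idi1, of the isoprenoid step, rose from 7.01, 6.61 and 6.48 to 8.57 and 8.41 (3.46-fold, adjusted p = 4.98e-07), with a second probe set at 3.76-fold. Fdft1, squalene synthase, rose from 6.38, 6.52 and 6.25 to 8.17 and 8.15 (3.43-fold, adjusted p = 7.71e-08), Sqle, squalene epoxidase, 2.80-fold and Fdps 2.76-fold. Cyp51, Lss, Nsdhl, Msmo1 and Sc5d, which act further down the chain, were the other 5. The 3 members that fell were Abcg1 (9.53, 9.30 and 9.22 against 7.58 and 7.32, 3.73-fold, adjusted p = 4.75e-08), Abca1 (3.04-fold) and Mylip, a ligase that degrades the LDL receptor. With any 1 of the 5 arrays left out there were 9 to 11 rises, always including these 9, and 3 falls. Centred on Gapdh, 4 sterol genes and none of the following desaturases passed. Fatty acid desaturases moved with the enzymes: Fads1 measured 9.21, 9.24 and 9.26 against 10.51 and 10.51 (2.43-fold, adjusted p = 4.66e-08), Fads2 rose 2.36-fold and Scd2 2.38-fold, the 3 of 20 fatty acid genes to rise, and Acsl4, which activates arachidonate, fell 2.41-fold. Among 27 lipid droplet genes Mgll alone was called, and not without Ctrl16h replicate 1 (0.86) or Ctrl4h replicate 3 (0.99).

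**Figure D5:**
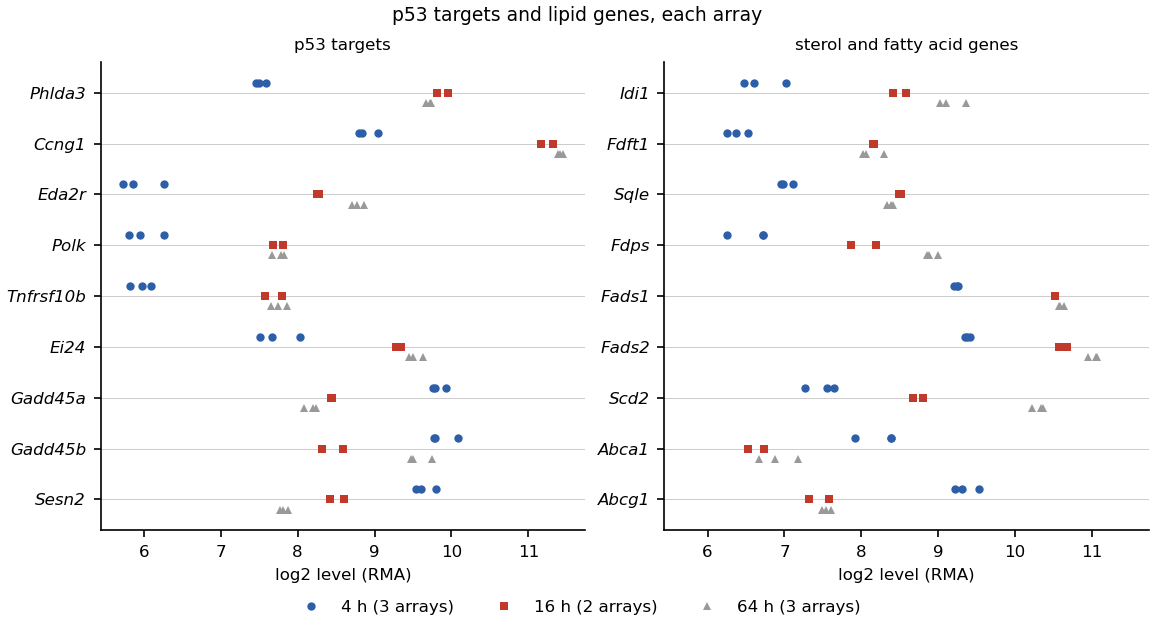
Log2 levels on each array at 4 h (blue), 16 h (red) and 64 h (grey) for p53 targets on the left and sterol and fatty acid genes on the right. Phlda3 to Ei24 and Idi1 to Scd2 lie higher at 16 h than at 4 h, and Gadd45a, Gadd45b, Sesn2, Abca1 and Abcg1 lie lower.

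Many genes of DNA replication were higher at 16 h, and few of mitosis differed. Of 33 genes of G1/S and DNA replication 16 passed an adjusted p of 0.05 with higher levels and 1 with a lower level, where 13.5% of all genes were higher, and 2 were called. Mcm2, of the replicative helicase, rose from 7.36, 7.40 and 7.48 to 9.05 and 9.03 (3.08-fold, adjusted p = 3.61e-08), and Rfc4, of the clamp loader, 2.17-fold. The count was 5 without Ctrl4h replicate 1, and the list median of 0.29 became -0.13 when centred on Gapdh. Of 27 genes of G2/M and mitosis none was called by limma (7 had an unadjusted p under 0.05), the median was -0.11, and their median level was 5.68 at 4 h, 5.56 at 16 h and 7.09 at 64 h. The 40 genes of the mitochondrial respiratory chain were higher in 23 cases and lower in 1 with none called (30 had an unadjusted p under 0.05), and their median of 0.31 became -0.11 on the Gapdh scale. Of 22 targets of YAP, the effector of mechanical tension, and CCN protein genes 4 rose and 1 fell. Their median was 0.14, or -0.06 centred on housekeeping genes. Under either centring 2 rose. Fat1, an atypical cadherin, rose from 6.44, 6.29 and 6.69 to 8.47 and 8.36 (3.85-fold, adjusted p = 8.37e-06) and Ajuba, a LIM protein of the Hippo pathway, 2.90-fold, while Ankrd1 and Amotl2 were lost without Ctrl4h replicate 3 (0.94 and 0.95), and Amotl2 also without Ctrl4h replicate 2 (0.95). Both were just short of 2-fold without 1 of the 16 h arrays, replicate 2 for Ankrd1 and replicate 1 for Amotl2. Fjx1, which acts on cadherins of the Fat family, fell 2.26-fold but not without Ctrl4h replicate 1 (-0.99). Lpp, a LIM protein of focal adhesions, rose 3.30-fold. Other large rises had no list, among them Commd3 (3.71-fold), Tuft1 (3.42-fold), the nuclear pore gene Aaas (3.32-fold) and Stxbp4 (3.27-fold).

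Several pathways gave no called gene. None of 15 heat shock genes, 31 proteasome subunits, 32 lysosome and autophagy genes, 26 CDK inhibitors and BCL2 family members, 42 genes of Wnt, Notch and Hedgehog signalling, 18 clock genes and 15 tubulins passed in limma, with list medians from -0.11 to 0.17. At an unadjusted limma p under 0.05 the share ran from 15 of 42 genes of Wnt, Notch and Hedgehog signalling to 12 of 18 clock genes. Over all 21789 probe sets 3948 were higher and 2603 lower at that limit. Without Ctrl4h replicate 3 a single clock gene fell. Centring brought falls into some of these lists: on housekeeping genes 1 clock gene and 1 gene of Wnt, Notch and Hedgehog signalling fell, and on Gapdh 3 and 2, with 1 each for heat shock, lysosome and autophagy, and CDK inhibitors and BCL2 family. The medians above 0 became negative when centred on housekeeping genes. Of 43 growth factor and receptor genes Hbegf, Hgf and Kit fell and none rose. Counting changes of any size that passed the adjusted p, 5 were higher and 11 lower, against 13.5% and 7.09% of all genes. Centred on housekeeping genes or on Gapdh, 5 fell. Of 25 BMP genes Bmper and Id2 rose, 2.62-fold and 2.37-fold, while Bmp2 and Id3 fell, Id3 not without Ctrl16h replicate 2 (-0.83), Ctrl4h replicate 2 (-0.97) or Ctrl4h replicate 3 (-0.96).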

How the data were processed

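The authors hybridised RNA of cultured HSCs to Affymetrix Mouse Gene 1.0 ST arrays, 1 array a culture, and deposited 1 table, the log2 values of an RMA summary. The study's methods name GeneSpring GX and the submitters' processing notes Affymetrix Expression Console. Of 35557 probe sets, GEO's platform annotation pairs 21789 with 1 symbol (19938 symbols; 21698 probe sets also had a gene ID in the reference table), 1621 with several and 12147 with none, and genes were named only from the first.

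All 14 arrays in 5 groups were fitted with limma 3.58.1 (R 4.3.3, lmFit and eBayes, 9 residual and 6.52 prior degrees of freedom, two-sided). Adjusted p-values are Benjamini-Hochberg over the 23410 probe sets with a symbol, and a call needs an adjusted p under 0.05 and 2-fold. With 2 arrays at 16 h, the spread of the other groups supports the test. Errors are standard errors of the fit. A gene with several probe sets stands in a list by its probe set of highest average level across the 14 arrays. Genes named are the 15 largest rises and 15 largest falls with arrays that do not overlap, up to 6 called members of each of 55 lists (or the top 2), and a few activation genes. Members and lists were chosen with earlier results of these data known. No set test was run. Alternatives were 2 other centrings, other eBayes settings, other subsets of arrays and probe sets, a replicate block, a one-way comparison and each array left out. The fit was tested on simulated data. Arrays give no counts, so their number limits the precision.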

Additional observations from a re-analysis of the deposited data

How the results depend on the processing

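The counts of 159 rises and 275 falls stayed within 1.5 times under all alternatives except 2. Centring on the mean of 13 housekeeping genes gave 80 and 425, and centring on 1 Gapdh probe set (it names 4 symbols) gave 38 and 741, with shifts of 0.20 and 0.42 in the median change. By construction a centring adds a constant to every change. Leaving out 1 array gave 154 to 186 rises and 242 to 300 falls. The one-way comparison gave 159 and 272. The replicate numbers were not taken as pairs. The 2 arrays at 16 h deviate from their mean as mirror images, so a check of Ctrl4h against Ctrl16h cannot settle pairing. In that check same-numbered arrays did not deviate together (r of -0.04 and -0.08 across probe sets). Across other groups they did in part: every same-numbered pair of Ctrl4h and the VPA arrays at 4 h (0.16, 0.28 and 0.14), of Ctrl64h and the VPA arrays at 64 h (0.16, 0.16 and 0.17) and of Ctrl4h and the latter (0.14, 0.18 and 0.11) correlated above 0.1, while those of Ctrl16h were below 0 with both groups at 64 h (-0.24 to -0.07) and 0.19 and -0.20 with VPA at 4 h. A fit with the replicate number as a block over all arrays gave 153 and 285. It lost 6 named calls, Usp18, Ddx58, Anxa3, Amotl2, Dusp5 and Ogn (log2 changes of 0.89, 0.95, 0.99, 0.96, -0.97 and -0.92), and called Loxl1, Fbln2, Lyz2 and Ctss (1.07, 1.02, -1.26 and -1.21). Of 133 named calls 99 held in all 12 alternatives run for single genes, 34 were lost in at least 1, 25 of them without 1 array, and none reversed. With 2 arrays at 16 h, changes near 2-fold depend on single arrays.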
